A study of Homo sapiens with 12 samples.

Results

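The BCL2 family genes decide whether a cell's mitochondria are opened in apoptosis, and 10 of them were followed here in A375 melanoma cells with and without knockdown of ALKBH5. The members were taken by gene name, by a rule that uses no measured value, and are 10 of the 29696 genes in the expression table. They are the anti-apoptotic genes BCL2, BCL2L1, MCL1 and BCL2A1, the effectors BAX and BAK1, and the BH3-only genes BCL2L11, BID, BMF and BIK. A375 is an established human melanoma cell line. The shCtrl cells carried a control hairpin and are labelled wild type, and the shALKBH5 cells carried a hairpin against ALKBH5, which encodes an enzyme that removes m6A from RNA. The study's methods describe delivery by lentivirus. The labels do not name which ALKBH5 hairpin was used or say whether all shALKBH5 libraries had the same. An effect of a hairpin outside ALKBH5 therefore cannot be told apart from the knockdown. Each group had 3 input libraries and 3 IP libraries, in which fragmented poly(A) RNA was precipitated with an antibody against m6A. Expression was read from the input libraries as FPKM, a fragment count divided by the transcript's length and the library's size. The m6A peaks were deposited as 1 list per group, so they have no replicates. Nothing in the labels says that the numbered libraries came from separate cultures, so the p-values measure the spread between these libraries, which may be technical.

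In the mitochondrial pathway of apoptosis, BAX and BAK1 proteins form pores in the outer mitochondrial membrane, through which cytochrome c leaves and activates caspases. Anti-apoptotic relatives hold BAX, BAK1 and their activators in check, and BH3-only proteins are the stress sensors that bind these guardians or activate the effectors directly. Melanoma cells are known for a strong reliance on MCL1 and BCL2L1, and BCL2A1 is a known target of MITF and of NF-kappaB. Many of these proteins are also set by degradation or cleavage, which RNA does not show.

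m6A is placed mainly on the central A of a short consensus whose core is GGAC, and the antibody also binds m6Am beside the cap, so signal at the 5' end of a transcript can hold either mark. To show the sequence under the peaks at the start of members, GGAC was searched on the transcript strand of the RefSeq promoter windows (GRCh38.p14, 250 bases before to 50 after an annotated start). Of the 10 members 8 had a window, and 7 of these 8 held GGAC in any of their windows. Counted by window, 10 of the 14 member windows held GGAC, beside 66.3% of all 35116 windows of that length. The 4 sites below are among those that lie inside both the member's gene and its peaks in both lists, and are shown 5' to 3' as 30 bases with GGAC in capitals.
BAX, chr19:48954825-48954854, plus strand: gcggccacgtgaaGGACgcacgttcagcgg
BAX, chr19:48954881-48954910, plus strand: cggccgcccgcgcGGACccggcgagaggcg
BCL2L11, chr2:111120691-111120720, plus strand: gtaaacacgccagGGACggcggcgcgcgcg
BCL2L11, chr2:111120815-111120844, plus strand: gcgcgccggggcgGGACctagcgggggcgg
The A of the BAX sites lay 25 and 81 bp from the 5' end of the gene, and those of the BCL2L11 sites 1328 and 1452 bp. Peak spans include introns, so a site inside a span need not lie in the mature RNA, and a match is a description of the letters only. GGAC was also found in the windows of BCL2L1 and BID, at sites within the gene that neither list covered with a peak.

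The targeted gene was lower in shALKBH5 cells. ALKBH5 was at 3.39, 3.92 and 3.12 FPKM in shALKBH5 libraries 1, 2 and 3 and at 19.3, 17.8 and 17.6 FPKM in shCtrl libraries 1, 2 and 3, a log2 fold change of -2.36 (standard error (SE) 0.0887, adjusted p by limma 1.28e-06). FPKM summed to between 212760 and 223231 over all genes in the 6 libraries, and the read depth is unknown. SOX10, a melanocyte lineage factor, was at 179 to 192 FPKM in every library, while the pigment genes TYR, DCT and TYRP1 were at or below 0.187 FPKM. Other markers of the lineage differed between the groups. S100B was at 82.1 ± 3.03 against 32.9 ± 1.35 FPKM (SD, n = 3 each), PMEL, below the filter, at 0.611 ± 0.116 against 0.237 ± 0.0629 FPKM, and MITF had a log2 fold change of 0.63 (adjusted p = 0.0475, or 0.126 without the filter on low values) with groups that overlapped. Of the markers of other cell types, the fibroblast list summed to 5.57 to 6.76 FPKM in shALKBH5 and 8.79 to 9.75 FPKM in shCtrl libraries, the keratinocyte list to 10.7 to 11.5 and 8.90 to 9.53 FPKM, and the endothelial and blood cell list to at most 0.388 FPKM. Of the fibroblast list 6 of 6 genes are in the table, with COL1A2 and COL3A1 near 0, PDGFRB lower (2.73 against 7.25 FPKM) and LUM higher (2.61 against 1.16 FPKM). The table holds 2 of 5 genes of the keratinocyte list, KRT10 being higher (10.8 against 8.17 FPKM) and KRT14 lower (0.369 against 0.961 FPKM), and 4 of 6 of the endothelial and blood cell list. The part of the lineage markers and of other cells in the results was not tested. In bulk RNA, fewer cells of a kind and less RNA per cell cannot be told apart.

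Of the 10 members, 8 reached the mean of 0.5 FPKM needed for the test and BCL2 and BIK did not. All 8 had an adjusted p below 0.05, with 5 higher and 3 lower in shALKBH5 cells. MCL1, BCL2A1, BAX, BAK1 and BCL2L11 were higher, and BCL2L1, BID and BMF were lower. This share has to be read against the whole table, where 61.0% of the 12985 tested genes passed, 34.7% higher and 26.2% lower, and where the groups stood apart without overlap in 67.0%. The median absolute log2 fold change of the 8 was 0.47, beside 0.36 over all tested genes, and their median log2 fold change was 0.28, beside 0.09. BCL2A1 reached the filter only through its shALKBH5 libraries, since its means were 1.36 FPKM in shALKBH5 and 0.480 FPKM in shCtrl libraries. A gene that passes in this way has to be higher in shALKBH5 libraries, though a small difference would be enough. After rescaling each library by its median ratio, 6 members passed, 3 higher and 3 lower, because BAX and BCL2L11 no longer did. Over all tested genes the rescaled split was 3777 higher and 3903 lower. For a single gene, 3 libraries against 3 cannot give an exact two-sided permutation p below 0.1, which is the value for every member whose groups did not overlap.

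**Figure D1:**
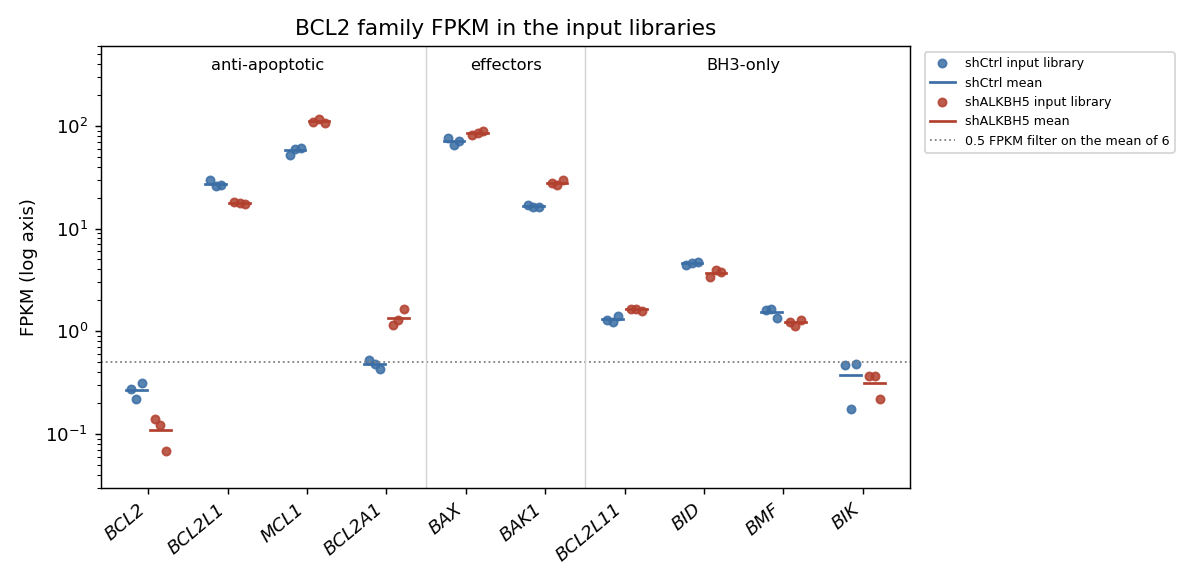
FPKM (log axis) of the 10 members in each input library (points, 3 per group) with the group mean (line); the dotted line is the filter of 0.5 FPKM on the mean of the 6 libraries. MCL1 is the highest member in shALKBH5 cells (mean 111 FPKM) and BAX in shCtrl cells (70.9 FPKM), BCL2 is at most 0.315 FPKM, and only BIK has groups that overlap.

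The anti-apoptotic genes moved in opposite directions. MCL1, a short-lived guardian that binds BAK1 and BCL2L11 proteins, was at 109.9, 115 and 107 FPKM in the shALKBH5 libraries and at 52.3, 60.02 and 60.4 FPKM in the shCtrl libraries. Every shALKBH5 library was well above every shCtrl library. The means were 111 ± 4.33 and 57.6 ± 4.60 FPKM (SD, n = 3 each), a ratio of 1.92. The log2 fold change was 0.94 (SE 0.0637, adjusted p = 1.63e-05), and 13.8% of all tested genes changed more. MCL1 was also abundant, with 3.13% of tested genes at a higher mean level.

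BCL2L1, which encodes BCL-XL, went the other way. Its values were 18.3, 17.6 and 17.4 FPKM in the shALKBH5 libraries and 29.8, 25.9 and 26.3 FPKM in the shCtrl libraries, with no overlap. The mean fell from 27.3 ± 2.17 to 17.8 ± 0.474 FPKM (SD, n = 3 each), a log2 fold change of -0.62 (SE 0.0618, adjusted p = 0.000111). BCL2L1 makes a long protective and a short pro-apoptotic splice form, and a gene-level FPKM does not separate them.

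BCL2A1, a guardian induced by NF-kappaB, had the largest log2 fold change of the tested members on the log2(FPKM + 0.1) scale, from a low level. It was at 1.15, 1.27 and 1.64 FPKM in the shALKBH5 libraries and at 0.530, 0.477 and 0.433 FPKM in the shCtrl libraries. The lowest shALKBH5 value lay above the highest shCtrl value. The log2 fold change was 1.32 (SE 0.164, adjusted p = 0.00034), and 0.67 with a pseudocount of 1 in place of 0.1, since a low gene depends on that constant. With a pseudocount of 1 it was below MCL1 at 0.93 and BAK1 at 0.73, so its first place held only with the smaller pseudocounts of 0.1 and 0.01.

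BCL2, the founding member, was nearly silent. It was at 0.140, 0.122 and 0.0682 FPKM in the shALKBH5 libraries and at 0.274, 0.221 and 0.315 FPKM in the shCtrl libraries. All shALKBH5 values were below all shCtrl values, at levels under the filter. Without the filter its log2 fold change was -0.82 (SE 0.216, adjusted p = 0.0366).

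Both effector genes were higher in shALKBH5 cells, BAK1 by more. BAK1, which sits in the outer mitochondrial membrane already in healthy cells, was at 27.9, 26.3 and 29.5 FPKM in the shALKBH5 libraries and at 16.9, 16.1 and 16.2 FPKM in the shCtrl libraries. The groups were far apart, and the log2 fold change was 0.76 (SE 0.0531, adjusted p = 1.92e-05). The pseudogene BAK1P1 was also listed, at 0.786 ± 0.153 and 0.448 ± 0.0849 FPKM (SD, n = 3 each). Whether the copies share reads was not tested.

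BAX, which moves to mitochondria when activated, was at 81.8, 84.6 and 89.01 FPKM in the shALKBH5 libraries and at 76.5, 65.7 and 70.5 FPKM in the shCtrl libraries. The lowest shALKBH5 library was only slightly above the highest shCtrl library. Its log2 fold change was 0.27 (SE 0.0616, adjusted p = 0.00736), with 61.6% of tested genes changing more. The rescaled libraries gave 0.19 (adjusted p = 0.0647), so the BAX call depended on the scaling.

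The 4 BH3-only members were the lowest of the 3 roles by summed FPKM, and the log2 fold changes of the 3 tested ones were at most 0.31 in size. BID, which links death receptors to mitochondria once caspase-8 cleaves it, was at 3.40, 3.96 and 3.75 FPKM in the shALKBH5 libraries and at 4.43, 4.65 and 4.71 FPKM in the shCtrl libraries. Its groups did not overlap, and the log2 fold change was -0.31 (SE 0.0742, adjusted p = 0.00889).

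BCL2L11, which encodes BIM, a binder of all guardians, was at 1.66, 1.65 and 1.59 FPKM in the shALKBH5 libraries and at 1.30, 1.23 and 1.40 FPKM in the shCtrl libraries. The difference was a log2 fold change of 0.30 (SE 0.0933, adjusted p = 0.0263). It was 0.23 after rescaling (adjusted p = 0.0758), 0.19 with a pseudocount of 1, and not past the threshold without any one of 5 of the 6 libraries, all but shCtrl library 3 (adjusted p = 0.052 to 0.084).

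BMF, a sensor tied to the cytoskeleton, was at 1.24, 1.12 and 1.30 FPKM in the shALKBH5 libraries and at 1.62, 1.65 and 1.35 FPKM in the shCtrl libraries. Only shCtrl library 3 lay close to the shALKBH5 values. The log2 fold change was -0.31 (SE 0.117, adjusted p = 0.0494), or -0.19 with a pseudocount of 1. The call was lost when any library other than shCtrl library 3 was left out (adjusted p = 0.0682 to 0.148).

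BIK, a sensor at the endoplasmic reticulum, was at 0.367, 0.364 and 0.218 FPKM in the shALKBH5 libraries and at 0.472, 0.175 and 0.482 FPKM in the shCtrl libraries. The groups overlapped. Without the filter its log2 fold change was -0.14 (SE 0.363, adjusted p = 0.816). The SE was larger than the change itself.

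The order of the members by FPKM differed between the groups at its top. In shCtrl cells BAX led with 70.9 ± 5.38 FPKM, followed by MCL1, BCL2L1 and BAK1 at 57.6, 27.3 and 16.4 FPKM. In shALKBH5 cells MCL1 was first and BAX second at 85.1 ± 3.64 FPKM, with BAK1 at 27.9 FPKM now above BCL2L1 at 17.8 FPKM. These 4 did not overlap with their neighbours in either group. Of the lower members, BMF and BCL2L11 overlapped in shCtrl cells, as did BCL2A1 with BIK and BIK with BCL2, and BCL2A1 overlapped with both BCL2L11 and BMF in shALKBH5 cells.

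**Figure D2:**
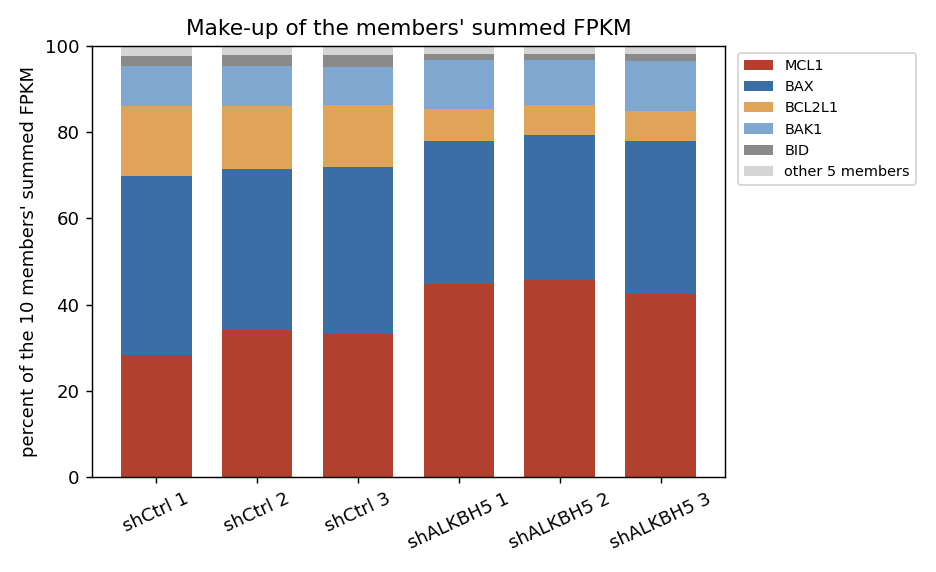
Share of the 10 members' summed FPKM taken by each of 5 members and by the other 5 together, as a stacked bar per input library (percent). MCL1 takes 42.5 to 45.7% in the shALKBH5 libraries and 28.4 to 34.1% in the shCtrl libraries, and BCL2L1 takes 6.92 to 7.44% and 14.4 to 16.2%.

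The summed FPKM of the members was 249.8 ± 3.48 in shALKBH5 and 181 ± 4.11 in shCtrl libraries (SD, n = 3 each). Most of it was MCL1 and BAX. MCL1 rose from 31.9 ± 3.06% to 44.3 ± 1.64% of this sum, while BCL2L1 fell from 15.1 ± 0.961% to 7.11 ± 0.287%. These shares were described and not tested, and they do not depend on how libraries were scaled against each other.

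The balance between the guardians shifted within each library. There were 6.01, 6.57 and 6.14 FPKM of MCL1 for each FPKM of BCL2L1 in the shALKBH5 libraries, and 1.75, 2.31 and 2.30 in the shCtrl libraries. The BAX to BCL2L1 ratio was 4.80 ± 0.323 against 2.59 ± 0.0816, and the BCL2L11 to BCL2L1 ratio 0.0919 ± 0.00159 against 0.0481 ± 0.00505 (SD, n = 3 each). Measured against MCL1, BCL2L11 was lower in shALKBH5 cells, at 0.0147 ± 0.000424 against 0.0228 ± 0.00218. The BAX to BCL2 ratio was 583 to 1305 in shALKBH5 and 224 to 297 in shCtrl libraries, and it rests on BCL2 values below the filter.

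By role, the anti-apoptotic members summed to 129.9 ± 4.22 FPKM in shALKBH5 and 85.7 ± 2.42 FPKM in shCtrl libraries. The effectors summed to 113 ± 4.77 and 87.3 ± 5.80 FPKM, and the BH3-only members to 6.87 ± 0.216 and 7.82 ± 0.120 FPKM (SD, n = 3 each). With the BH3-only genes PMAIP1, BBC3, BAD and HRK added, which are no members, the BH3-only sum was 34.6 ± 0.358 and 33.9 ± 1.75 FPKM, with groups that overlapped, so the lower sum held for the members and not for that wider set. The effector and BH3-only members together were 0.899, 0.878 and 0.995 times the anti-apoptotic members in the shALKBH5 libraries and 1.22, 1.03 and 1.08 times in the shCtrl libraries. For the members alone, the groups did not overlap in any of these sums. The BAX to BCL2 ratio was thus higher and the ratio over all members lower in shALKBH5 cells.

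**Figure D3:**
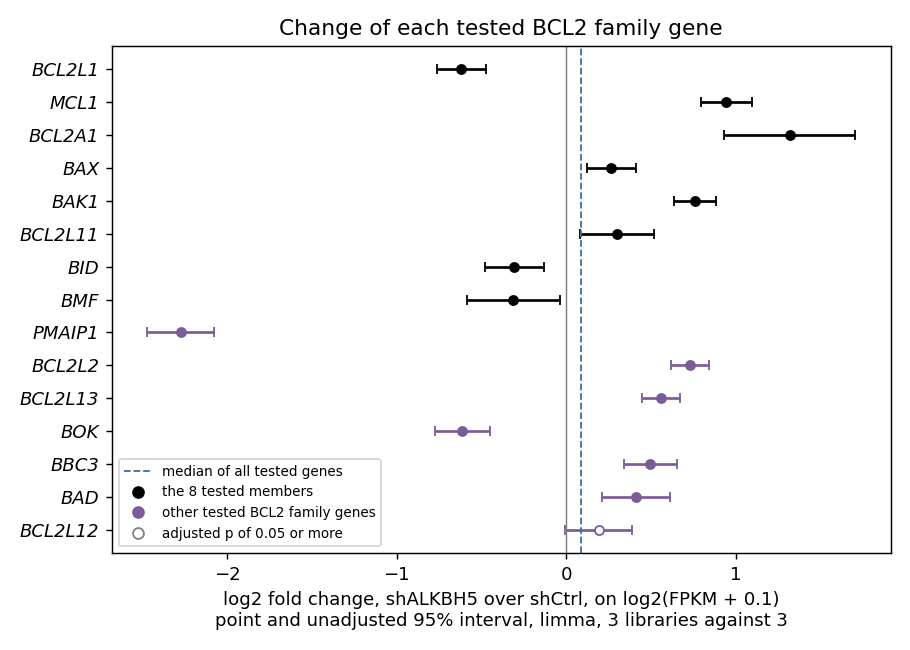
Log2 fold change (shALKBH5 over shCtrl, on log2(FPKM + 0.1)) of the 8 tested members and the 7 other tested BCL2 family genes, with unadjusted 95% intervals from limma; an open point has an adjusted p of 0.05 or more, and the dashed line is the median of all tested genes (0.09). PMAIP1 lies far to the left at -2.27, and MCL1, BCL2A1, BAK1 and BCL2L2 lie to the right of 0.6.

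Among the other BCL2 family genes, 7 of 11 were tested, with 4 higher, 2 lower and 1 not past the threshold. PMAIP1, which encodes NOXA, a BH3-only protein that binds MCL1 and promotes its degradation, was at 1.24, 1.37 and 1.13 FPKM in the shALKBH5 libraries and at 6.29, 6.48 and 6.39 FPKM in the shCtrl libraries. Its log2 fold change was -2.27 (SE 0.0838, adjusted p = 1.15e-06), larger in size than that of any tested member. BBC3, which encodes PUMA, a BH3-only protein, rose by 0.50 (adjusted p = 0.000465), and BAD, a BH3-only protein controlled by phosphorylation, rose by 0.41 (adjusted p = 0.00447). BOK, an effector relative, had a log2 fold change of -0.61 (adjusted p = 0.000199). The guardian BCL2L2 was at 0.73 (adjusted p = 1.34e-05), with the overlapping readthrough gene BCL2L2-PABPN1 at 1.80, so how reads were divided between them is uncertain. BCL2L2-PABPN1 passed the filter only through its shALKBH5 libraries, since its shCtrl mean was 0.274 FPKM. BCL2L13, a mitochondrial relative, had 0.56 (adjusted p = 4.83e-05), and BCL2L12 had 0.19 (adjusted p = 0.0842, or 0.0344 without shCtrl library 1). BCL2L10, BCL2L14, BCL2L15 and HRK were below the filter.

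These other family genes and 6 pathway lists around the family together made 7 lists with 64 tested genes, of which 45 (70.3%) passed the threshold, 25 higher and 20 lower in shALKBH5 cells, or 16 higher and 23 lower after rescaling. Over all tested genes 61.0% passed, and rescaling turned the excess of higher genes there too. Caspases, their scaffold and their inhibitors had 3 genes higher and 6 lower of 10 tested, with a median log2 fold change of -0.37. The inhibitor BIRC5, which encodes survivin and is made mainly in dividing cells, was at -1.98 (adjusted p = 6.85e-07). BIRC3 and BIRC2, neighbouring inhibitor genes known as NF-kappaB targets or partners, were at 1.42 (adjusted p = 0.00103) and 0.77 (adjusted p = 0.000673). BIRC3 passed the filter only through its shALKBH5 libraries, and its log2 fold change was 0.63 with a pseudocount of 1.

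Of 9 tested genes for the turnover of MCL1, BAX and BCL2L11 proteins, 2 were higher and 5 lower, with a median of -0.44, or 1 higher and 5 lower after rescaling. CDC20, a mitotic activator of the anaphase-promoting complex, fell from 131 ± 14.9 to 36.7 ± 1.12 FPKM (SD, n = 3 each), a log2 fold change of -1.83 (adjusted p = 2.09e-06). BTRC, a ubiquitin ligase subunit, was at -1.54 (adjusted p = 5.5e-06). MARCHF5, a mitochondrial ubiquitin ligase, was at 0.14 (adjusted p = 0.0463, 0.321 after rescaling and 0.0533 to 0.146 with any library left out).

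Of 13 transcription factors known to act on members, 5 were higher and 5 lower, with a median of -0.15, or 1 higher and 6 lower after rescaling. NFKB1, an NF-kappaB subunit, rose from 14.3 ± 0.809 to 25.3 ± 0.407 FPKM (SD, n = 3 each), a log2 fold change of 0.82 (adjusted p = 1.14e-05). E2F1, a driver of cell cycle genes, was at -1.61 (adjusted p = 2.57e-05), and TP73, which passed the filter only through its shCtrl libraries, at -1.31 (adjusted p = 0.000579), or -0.58 with a pseudocount of 1.

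The death receptor list had 3 of 8 tested genes higher and none lower, or 1 higher and 1 lower both after rescaling and without shALKBH5 library 3, with TNFRSF10B, a TRAIL receptor, at 0.47 (adjusted p = 3.64e-05) and CASP8, the caspase that cleaves BID, at 0.22 (adjusted p = 0.0464, 0.134 after rescaling, 0.0879 without the filter and 0.0609 to 0.151 without any library other than shCtrl library 2). Mitochondrial partners had 4 higher and 1 lower of 10. In that list ENDOG and AIFM1, which encode proteins released from mitochondria, were at 0.55 (adjusted p = 0.000489) and 0.34 (adjusted p = 0.00602). OPA1, which shapes the inner membrane, was at -0.57 (adjusted p = 0.0386, 0.0995 without the filter, and 0.0505 to 0.113 without any library other than shCtrl library 3), or -0.30 with a pseudocount of 1. BNIP and BH3-like genes had 4 higher and 1 lower of 7, or 2 and 2 after rescaling. MOAP1, a BAX partner, rose from 8.59 ± 0.351 to 19.04 ± 0.646 FPKM (SD, n = 3 each), a log2 fold change of 1.14 (adjusted p = 2.7e-06). BECN1, an autophagy gene with a BH3 motif, was at 0.27 (adjusted p = 0.00334), and BNIP3, a mitophagy receptor, at -0.41 (adjusted p = 0.00145).

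BCL2A1 was the tested member with the largest change on the log2(FPKM + 0.1) scale, though not with a pseudocount of 1. The 3 tested genes nearest to it over the 6 libraries, by Euclidean distance of log2(FPKM + 0.1) values centred on the shCtrl mean, were AC007040 (distance 0.266), ARF4-AS1 (0.268) and ZBTB11-AS1 (0.293). The last pair are antisense genes, and whether counting used the strand is not stated, so their values may hold reads of the opposite gene.

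Peaks of m6A were listed for all 10 members in shALKBH5 cells and for 9 in shCtrl cells, BIK being the exception. The lists held 26 and 21 member peaks. The tested genes of the whole table have 12868 distinct symbols, by which peaks were matched, and 87.1% and 86.5% of these had a peak. By the deposited annotation, the 26 shALKBH5 peaks were 10 in the 5'UTR, 14 in the 3'UTR and 2 in other exons, and the 21 shCtrl peaks were 7, 13 and 1. The 5'UTR held 38.5% and 33.3% of the member peaks, beside 16.6% and 17.0% of all peaks. These shares have unlike bases, since all peaks include further classes, in which no member peak fell. The 3'UTR and other exons held 45.5% and 13.3% of all shALKBH5 peaks. Of the 10 shALKBH5 member peaks in the 5'UTR, BCL2 and BCL2L1 gave 3 each. The label does not fix the place, as 1 of those in BCL2L1 spanned 56554 of the gene's 59538 bp. Several peaks of 1 gene were counted each. The median fold enrichment of IP over input was 4.68 and 4.55 for member peaks, beside 5.31 and 5.25 for all peaks. Of the member peaks 4 in each list had long spans, over 10000 bp, with introns included, and overlaps between such spans may lie in introns.

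**Figure D4:**
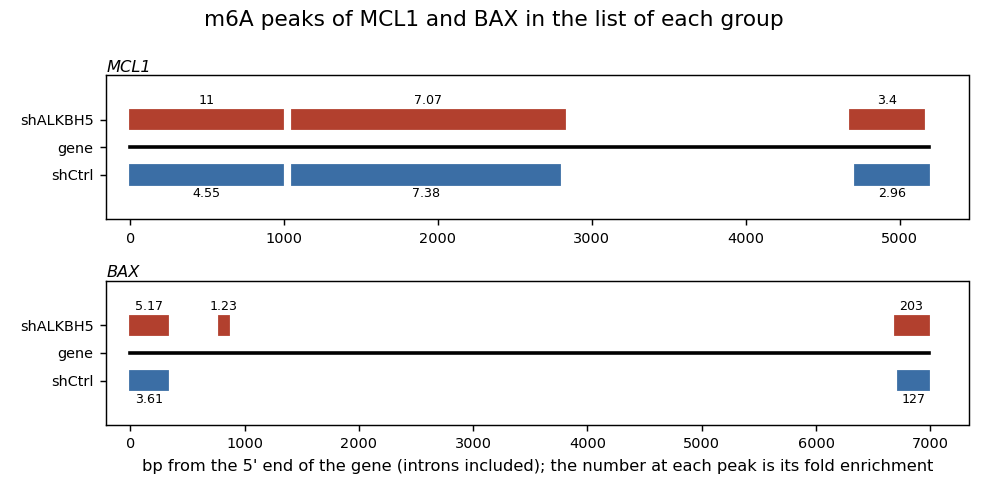
m6A peaks of MCL1 and BAX in the list of each group, by distance in bp from the 5' end of the gene with introns included; the number at each box is its fold enrichment of IP over input. MCL1 has 3 peaks in each list that overlap pair by pair, with 11.0 against 4.55 at the 5' end, and BAX has its strongest peak at the 3' end, with 203 against 127.

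MCL1 and BAX had clear peaks that overlapped between the groups. The first MCL1 peak, at chr1:150578745-150579738 (994 bp, other exon), had identical ends in both lists and a fold enrichment of 11.0 in shALKBH5 and 4.55 in shCtrl cells. The ratio was 2.42, which 8.88% of all overlapping pairs exceeded. Both 3'UTR peaks of MCL1 differed less, at 7.07 against 7.38 and at 3.40 against 2.96, ratios of 0.958 and 1.15. The 3'UTR peak of BAX, at chr19:48961501-48961798 in the shALKBH5 list, had the highest enrichment of any member, 203 against 127, and 0.0760% of all shALKBH5 peaks and 0.149% of all shCtrl peaks were higher. Its 5'UTR peak, at chr19:48954815-48955142, which holds both BAX sites printed above, was at 5.17 against 3.61.

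BAK1 had a single 3'UTR peak at chr6:33572547-33572816 with the same ends in both lists, at 11.2 against 10.4. BCL2A1 was covered from end to end by 1 peak in each list, at 4.82 against 5.53. BID had 2 in the 3'UTR, at 2.22 against 2.34 and at 2.21 against 2.77. The first BCL2L1 peak was at 2.36 against 3.40 and the long one, of 56554 bp against 56902 bp, at 7.58 against 8.53, with a short peak at 1.69 in the shALKBH5 list only that overlapped the latter. BCL2L11 had 4 peaks in each list between 1.74 and 4.26, and BMF 4 and 3 peaks, led by the 5'UTR peak at 11.0 against 15.3.

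The 5'UTR peak of BCL2 in the shCtrl list, at 14.6, overlapped 4 in the shALKBH5 list, 3 in the 5'UTR at 12.2, 3.78 and 17.1 and the end of a 3'UTR peak at 34.3. That 3'UTR peak spanned most of the gene and also overlapped a shCtrl peak at 15.3. The input level of BCL2 was at most 0.315 FPKM and lower in shALKBH5 cells, so these enrichments rest on little input. BIK, likewise low, had a 3'UTR peak at 9.80 in shALKBH5 cells, with a log10 FDR of -1.12, and none listed in shCtrl cells. With 1 list per group a missing peak does not show that the mark was absent.

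**Figure D5:**
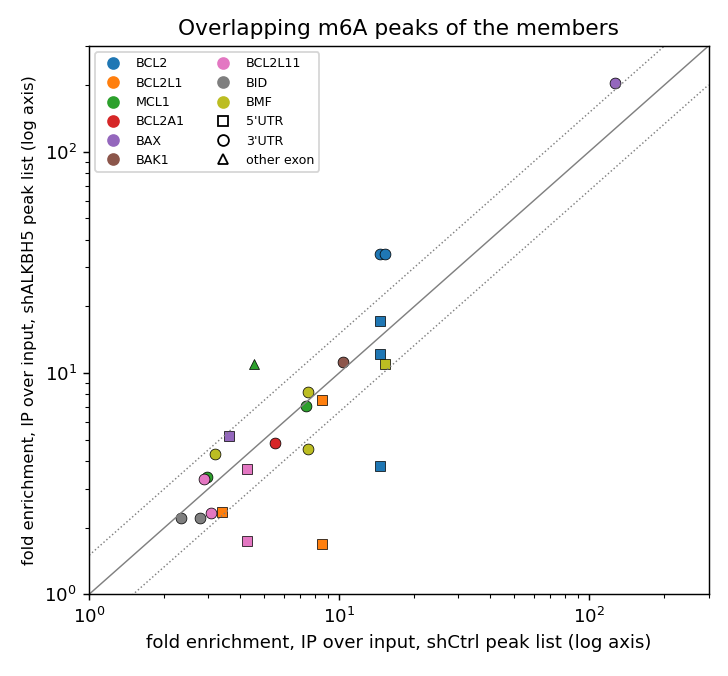
Fold enrichment of IP over input (log axes) of the 25 overlapping pairs of member peaks, shCtrl list on the horizontal and shALKBH5 list on the vertical axis, coloured by gene and shaped by the region in the shALKBH5 list; the solid line is equality and the dotted lines are 1.5 times higher and lower. Pairs lie on both sides of equality (11 above, 14 below), with 4 beyond each dotted line.

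In all, 24 of 26 shALKBH5 and 19 of 21 shCtrl member peaks shared at least 1 bp with a peak of the other list on that strand, beside 78.1% and 81.3% of all peaks. They formed 25 pairs, of which 4 had a fold enrichment at least 1.5 times higher in shALKBH5 cells, where 20.7% of all 46422 pairs did, and 4 at least 1.5 times lower, where 20.9% did. The higher pairs, at ratios of 1.60 to 2.42, were in MCL1, BAX and BCL2 (2 pairs that share 1 shALKBH5 peak). The lower pairs, at 0.198 to 0.608, were in BCL2, BCL2L1, BCL2L11 and BMF, each with a shCtrl peak that also overlapped another shALKBH5 peak. The median ratio was 0.949 for member pairs and 0.975 for all pairs.

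The deposited table of differential peaks listed 5 peaks in 4 of the 10 members, where it listed 27.3% of all genes with a peak. They were in BAX (chr19:48955588-48955647, other exon), BCL2L1 (chr20:31666004-31722557, 5'UTR), BID (chr22:17734198-17734616, 3'UTR) and BCL2L11 (chr2:111119438-111122713, 5'UTR, and chr2:111123791-111128668, other exon). The BAX peak in that table overlapped the weak one at 1.23, seen in the shALKBH5 list only, and none of the MCL1 peaks was listed. The direction and p-values in that table were not used. Set side by side with expression, MCL1 was higher with 2 of 3 peaks above their shCtrl enrichment, 1 of them by at least 1.5 times. BAK1 was higher with its peak at 1.08 times the shCtrl enrichment, and BCL2L1 was lower with a listed peak at 0.889 times. BAX was higher with pairs at 1.43 and 1.60 times, and BID lower with pairs at 0.949 and 0.798 times. BCL2A1, in contrast, was higher with its pair at 0.872 times. BCL2L11 was higher with pairs at 0.862, 0.408, 0.761 and 1.16 times. BMF was lower with pairs at 0.719, 1.10, 0.608 and 1.34 times. The tested members thus did not all move the same way in RNA and m6A, and a link was not tested.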

How the data were processed

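Expression was measured by RNA-Seq of input RNA and m6A by MeRIP-Seq. The authors deposited expression as FPKM per input library, from strand-marked libraries of poly(A) RNA. The aligner, the counter and the strand setting are not given in the sources used here. For m6A the authors deposited a single list for each group, giving every peak a fold enrichment, a linear ratio of IP over input, and with log10 p and FDR values, treated as a score because some are infinite. The authors' columns of fold changes, p-values and FDRs between groups were not used. The submitters' processing notes name mm10, a mouse build. Gene ends were therefore compared with RefSeq GRCh38.p14, and 70.5% of 11826 tested genes and 8 of 10 members had an identical start or end, so positions were read as GRCh38. Peak starts are 0-based in the tables and are given 1-based here.

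Genes whose 6 input values averaged 0.5 FPKM or more were tested with limma 3.58.1 in R 4.3.3 (lmFit, eBayes with a trend) on log2(FPKM + 0.1). Tests were two-sided, and p-values were adjusted by Benjamini-Hochberg over 12985 genes with a threshold of 0.05. Fold changes on this scale understate those of low genes. No counts were used, so the depth is unknown and 3 libraries per group limit the precision. The test was checked on simulated data. Peaks were overlapped with Python 3.11.15 and pandas 2.3.3 on their full spans. Alternatives varied the pseudocount (1 or 0.01), the filter (none or 1 FPKM), the scaling (median ratio), the model (a block for the replicate number, or no trend), the libraries (each left out once), and the peaks (stricter ones, or 50% reciprocal overlap). Pairs of peaks that overlap only each other, and a wider BH3-only sum, were added after the data were seen.

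The members were taken by name and not by a measured value, but they and the gene lists were chosen with earlier results of these data known. The text names ALKBH5, the members, all tested genes of the other BCL2 family list, in each further list the 2 largest changes in each direction among genes past the threshold with groups that do not overlap, and the 3 nearest patterns to the member with the largest change. Marker genes, BAK1P1 and BCL2L2-PABPN1 were named for what they bear on. Further genes under this rule and 1 sequence are not reported here. Motifs were searched only in promoter windows.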

Additional observations from a re-analysis of the deposited data

How the results depend on the processing

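ALKBH5, MCL1, BCL2L1, BCL2A1, BAK1, BID and PMAIP1 kept their direction and their side of the threshold under every alternative that could be run for them. BCL2A1 could not be run at a filter of 1 FPKM. Between 6 and 8 members passed under the alternatives. BMF was lost without the filter (adjusted p = 0.0917) and at 1 FPKM (adjusted p = 0.0533). Same-numbered libraries of the 2 groups deviated together at r = 0.0181, -0.0462 and 0.0591, so no pairing by replicate number was seen. Such a check cannot show whether same-numbered samples were handled together, which the labels do not say. With the replicate number as a block, 6 members passed, BCL2L11 (adjusted p = 0.0806) and BMF (adjusted p = 0.111) being lost, and 7271 genes in place of 7917. MITF, OPA1 and CASP8 were lost without the filter (adjusted p = 0.126, 0.0995 and 0.0879). With the block OPA1, CASP8 and MARCHF5 were lost (adjusted p = 0.0789, 0.057 and 0.133). The other family genes and the 6 pathway lists together gave 37 to 45 genes past the threshold. The death receptor list gave 1 in place of 3 without the filter, with the block, without the trend, and without shALKBH5 library 1 or 2 or shCtrl library 3, and the BNIP and BH3-like list gave 3 in place of 5 when any of these 3 libraries was left out. At a reciprocal overlap of 50%, 15 in place of 24 shALKBH5 member peaks overlapped, and with stricter peaks (enrichment from 2 up, FDR up to 0.01) 18 of 19 did, beside 24 of 26. The median ratio of member pairs was 1.02 in place of 0.949 over the 14 pairs that overlap only each other, so its side of 1 is not settled. Depth could not be assessed without counts.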
